A study of Homo sapiens with 6 samples.

Results

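The chaperonin CCT, also called TRiC, is built from 8 different subunits, TCP1, CCT2, CCT3, CCT4, CCT5, CCT6A, CCT7 and CCT8. They were taken by their gene symbols, and all 8 were present among the 8121 genes of the translational efficiency (TE) table, among the 9570 transcripts of the table of ribosome occupancy, and so among the 6912 genes in both. The data come from ribosome profiling of HEK293 cells, an established human line derived from embryonic kidney. There were 3 libraries of ribosome-protected fragments (RPFs) and 3 libraries of total RNA, numbered 1 to 3, and all of them carry the label control siRNA and a cycloheximide treatment at 100 µg/ml. The study's methods take RPFs and total RNA of a number from the same lysate, and with a single condition the subunits can be compared only with each other and with other genes. The labels do not say whether the replicates came from separate cultures, so p-values measure only the spread between these samples, which may be technical.

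The chaperonin is a double ring with a cavity in each ring, and each ring holds every subunit once. It binds unfolded proteins, above all actin and tubulin, and closes around them as ATP is hydrolysed. Because the subunits stand in the complex at equal numbers, how much each mRNA is translated can be compared without a difference in the amount needed. CCT4, CCT5, CCT2 and CCT7 are known as the subunits that bind ATP more tightly, and TCP1, CCT3, CCT6A and CCT8 as those that bind it less tightly.

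Of the HEK293 markers, 6 of 7 genes had a TE, and PAX2 had none. The relative mRNA abundance was 707 for VIM, 610 for NEFL, 528 for NEFM and 177 for LIN28B. It was 89.1 for KRT18 and 14.1 for KRT8, beside a median of 32.3 over all transcripts. Of 7 markers of other cell types only COL1A1 was listed, at a relative mRNA abundance of 1.39, and ALB, HBB, PTPRC, CD3E, EPCAM and PECAM1 were not. Relative mRNA abundance is explained with the occupancy values below.

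The start codon and its surroundings set where a ribosome begins, so they are shown for the transcript that the occupancy table lists for each subunit, with the ATG in capitals (sequence from GENCODE 44 on GRCh37, each in the sense of its gene).
CCT4: gagtttgccATGcccgag
CCT5: tttaagtcaATGaattcc
CCT2: ctcggaaccATGgcgtcc
CCT7: gcttccaaaATGatgccc
TCP1: gccgtcaagATGgagggg
CCT3: cgcgtcgccATGatgggc
CCT6A: ggagcagctATGgcggcg
CCT8: aggctggccATGgcgctt
An A or G stood 3 bases before the start codon in 7 of the 8, all but CCT5, and in 85.9% of 9061 transcripts with this sequence. A G stood right after the ATG in 4 of the 8, TCP1, CCT2, CCT6A and CCT8, and in 53.2% of the transcripts. A relation of the start context to TE was not tested.

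The genes lie apart from each other, on 7 chromosomes, with CCT4 and CCT7 both on chromosome 2. Positions in GRCh37 are those of the whole gene over all its transcripts, and exons are counted in the listed transcript alone. CCT4 lies at chr2:62095220-62115806 on the minus strand in 14 exons and CCT5 at chr5:10250041-10266501 on the plus strand in 11 exons. CCT2 lies at chr12:69979206-69995350 on the plus strand in 16 exons and CCT7 at chr2:73460548-73480149 on the plus strand in 12 exons. TCP1 lies at chr6:160199530-160210735 on the minus strand in 12 exons and CCT3 at chr1:156278759-156337664 on the minus strand in 14 exons. CCT6A lies at chr7:56119378-56131682 on the plus strand in 14 exons and CCT8 at chr21:30428126-30446118 on the minus strand in 15 exons. The coding sequences are of like length, from 521 codons in CCT5 to 557 codons in TCP1, stop codon included.

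To ask whether the mRNAs of the complex are translated alike, the TE of each subunit was read in each replicate. TE is the authors' ratio of RPFs to total RNA for a gene, and its median over all genes was 0.382, 0.380 and 0.388 in replicates 1 to 3. CCT4, which takes part in the contact with actin, had a TE of 2.38, 2.52 and 2.42, a mean of 2.44 ± 0.0736 (SD, n = 3). CCT5, whose mutation is known from a hereditary sensory neuropathy, had a TE of 0.577, 0.584 and 0.577, a mean of 0.580 ± 0.00402 (SD, n = 3). CCT2 had a TE of 0.808, 0.820 and 0.819, a mean of 0.815 ± 0.00661 (SD, n = 3). The values of these 3 subunits did not overlap, and the gaps between them were many times the spread between replicates. CCT7 had a TE of 0.653, 0.659 and 0.650, a mean of 0.654 ± 0.00464 (SD, n = 3), and stood between CCT5 and CCT2.

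Among the subunits that bind ATP less tightly the range was as wide. TCP1, the subunit after which the family of chaperonins is named, had a TE of 0.642, 0.684 and 0.704, a mean of 0.677 ± 0.0314 (SD, n = 3). CCT3 had the lowest TE of the complex, 0.448, 0.453 and 0.435, a mean of 0.445 ± 0.00943 (SD, n = 3). CCT6A, the subunit with a testis paralog, had a TE of 2.23, 2.37 and 2.31, a mean of 2.30 ± 0.0744 (SD, n = 3). CCT8 had a TE of 1.43, 1.41 and 1.41, a mean of 1.41 ± 0.0105 (SD, n = 3). Thus CCT4 and CCT6A stood at the top in every replicate, CCT8 came next, and the other 5 lay below 1.

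**Figure D1:**
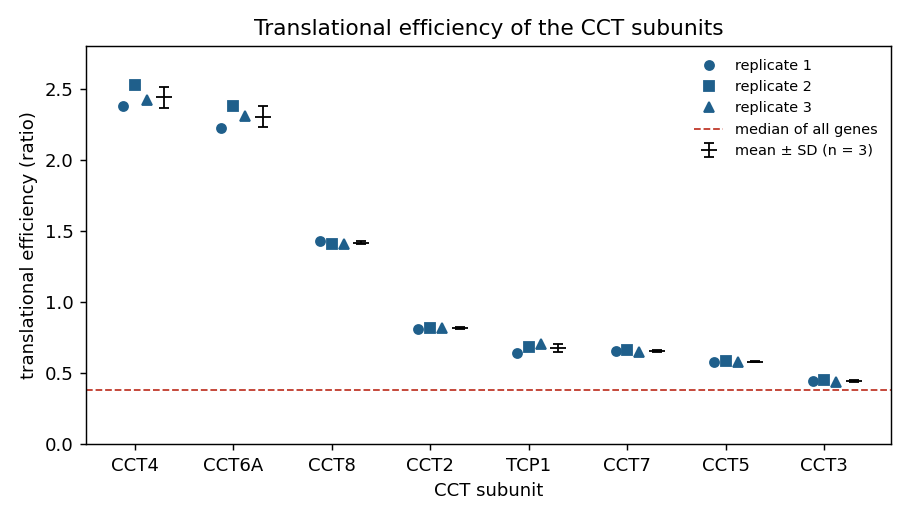
Translational efficiency (ratio, vertical axis) of the 8 CCT subunits, ordered by mean. Symbols are the 3 replicates, bars are mean ± SD (n = 3) and the dashed line is the median of all genes (0.383 as the mean of the replicates). CCT4 and CCT6A lie above 2.2 in every replicate and CCT3 lies just above the line.

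Every subunit was translated more per mRNA than the median gene. In a limma fit across all genes, with log2(TE + 0.01) set against the median and an FDR of 0.05, all 8 were called higher, beside 44.7% of all genes called higher and 44.6% called lower. The log2 difference from the median, a contrast on the log2(TE + 0.01) scale, was 2.64 ± 0.0497 (SE) for CCT4 and 2.56 ± 0.0501 (SE) for CCT6A. It was 1.86 for CCT8, 1.07 for CCT2, 0.80 for TCP1, 0.76 for CCT7 and 0.58 for CCT5, with adjusted p between 1.57e-06 for CCT4 and 0.000142 for CCT5 over these 7 subunits. For CCT3 it was 0.21 ± 0.0483 (SE) with an adjusted p of 0.00966, and without replicate 2 it was 0.19 with an adjusted p of 0.0549, no longer past the threshold. Ranked among all genes by mean TE, CCT4 stood at percentile 93.6, CCT6A at 93.1, CCT8 at 87.1, CCT2 at 74.6, TCP1 at 69.6, CCT7 at 68.5, CCT5 at 64.7 and CCT3 at 55.6.

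The subunits also differed from each other. The highest mean TE, that of CCT4, was 5.48 times the lowest, that of CCT3, and this ratio was 5.32, 5.57 and 5.56 within replicates 1 to 3. The 28 pairs of subunits were compared within each replicate in limma fits across all genes, and 26 differed (adjusted p under the FDR of 0.05, adjusted over all genes). In the 8 fits, 93.7% of all genes differed from the subunit that served as reference, so that a difference is the usual outcome for any pair of genes. With 3 values in a pair of subunits an exact permutation test cannot go below p = 0.25, hence the fit across genes.

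The pairs that did not pass stood next to each other in the order. CCT4 exceeded CCT6A by 0.083 on the log2 scale, with a 95% interval from -0.063 to 0.23 and a limma adjusted p of 0.214. TCP1 exceeded CCT7 by 0.047, with a 95% interval from -0.12 to 0.21 and a limma adjusted p of 0.541. CCT5 lay below CCT7 by 0.17 (log2 difference -0.17, limma adjusted p 0.0192), and this pair lost its call without replicate 1, 2 or 3 (limma adjusted p 0.0649, 0.0696 and 0.0799). TCP1 exceeded CCT5 by 0.22 (limma adjusted p 0.0180), and that call was lost without replicate 2 or 3 (limma adjusted p 0.108 and 0.113). The widest gap between neighbours in the order was from CCT8 down to CCT2 (CCT2 against CCT8 -0.79 on the log2 scale). It was followed by that from CCT6A to CCT8 (0.70), from CCT5 to CCT3 (CCT3 against CCT5 -0.37) and from CCT2 to TCP1 (TCP1 against CCT2 -0.27), and all of these gaps passed the test.

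The occupancy table gives a second view of the same mRNAs. It holds for each codon the authors' count of in-frame RPFs normalized for library size and divided by the level of that transcript in total RNA (TPM), with the replicates combined. The mean over the coding sequence (CDS) was 0.108 for CCT5, 0.0978 for CCT8, 0.0960 for CCT6A and 0.0947 for CCT4. It was 0.0699 for TCP1, 0.0659 for CCT2, 0.0627 for CCT3 and 0.0589 for CCT7. All 8 of these combined values lay above the median of all transcripts, 0.0450, between percentile 63.1 for CCT7 and percentile 85.4 for CCT5.

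Within each transcript every value is a sum of whole reads, each worth a fixed amount in each of 3 libraries, and all 4325 codons of the subunits resolved into exact whole reads. The libraries are called here by their reads, since they were not matched to replicate numbers. In the library with most reads, the subunits held 31302 (CCT2) to 49691 (CCT3) in-frame reads in the CDS, in the middle library 24811 (CCT2) to 40512 (CCT3), and in the library with fewest reads 16526 (CCT2) to 27609 (CCT5). The mean CDS occupancy of a subunit, taken from the reads of each library, had an SD between the 3 libraries of 1.17% (CCT7) to 3.82% (CCT8) of its mean. At this depth counting error is small beside the differences described below. The profiles of a subunit along its codons correlated between libraries with Pearson coefficients from 0.956 in CCT8 to 0.982 in TCP1 (3 pairs of libraries for each subunit).

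The worth of a read falls as the mRNA becomes more abundant, so its inverse, scaled to a sum of 1000000 over all transcripts in each library, gives a relative mRNA abundance per length. CCT3 had 1212, CCT7 1152 and TCP1 1027, and these 3 mRNAs stood above the others. CCT5 had 740, CCT2 724, CCT4 695, CCT8 683 and CCT6A 616. All 8 mRNAs were abundant, at or above percentile 97.8 of the 9557 transcripts with such a value, whose median was 32.3. In each library CCT3 was the highest and CCT6A the lowest, by 2.01, 1.97 and 1.93 times in the libraries with most, middle and fewest reads.

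Reads per codon, the number of ribosomes found on all copies of an mRNA per codon, varied less than the other measures over the complex. Summed over the 3 libraries there were 225 reads per codon on CCT5, 215 on CCT3, 204 on TCP1 and 192 on CCT7. There were 188 on CCT8, 187 on CCT4, 168 on CCT6A and 136 on CCT2. The highest was 1.66 times the lowest, and 1.63, 1.67 and 1.72 times within the libraries with most, middle and fewest reads, with CCT5 the highest and CCT2 the lowest each time. CCT2 stood apart from the other 7, which lay between 168 and 225.

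On the log2 scale the SD over the subunits was 0.23 for reads per codon, 0.34 for CDS occupancy, 0.38 for mRNA abundance and 0.93 for TE. By CDS occupancy, the mRNAs with more copies, CCT3, CCT7 and TCP1, carried fewer ribosomes per copy than CCT4, CCT5, CCT6A and CCT8. CCT2, with fewer copies than TCP1, also had a lower occupancy. By TE the same order held for CCT4, CCT6A and CCT8 but not for CCT5. The mean TE of CCT5, 0.580, lay above CCT3 (0.445) but below CCT7 (0.654) and TCP1 (0.677). CCT2, at a mean TE of 0.815, lay above TCP1. Over the 8 subunits occupancy and abundance had a Spearman coefficient of -0.67, against -0.043 over 6900 genes. Abundance is also the divisor of occupancy, so the coefficient is not between independent values, and no test was made. A lower spread of the product than of its factors was also seen for prefoldin, the co-chaperone that hands actin and tubulin to CCT. Over its 5 measured subunits the output, the product of occupancy and abundance, ranged 1.78 times, abundance 6.65 times and occupancy 3.74 times. In the MCM2-7 helicase of DNA replication, another ring of different subunits in equal numbers, output ranged 3.71 times over 6 genes. Abundance ranged 4.56 times there, and occupancy 3.67 times, slightly less than output. The SD on the log2 scale over these genes was 0.69 for output, 0.75 for abundance and 0.76 for occupancy. Over the CCT subunits output ranged 1.67 times, and these spreads of 5 to 8 genes were not tested against each other.

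**Figure D2:**
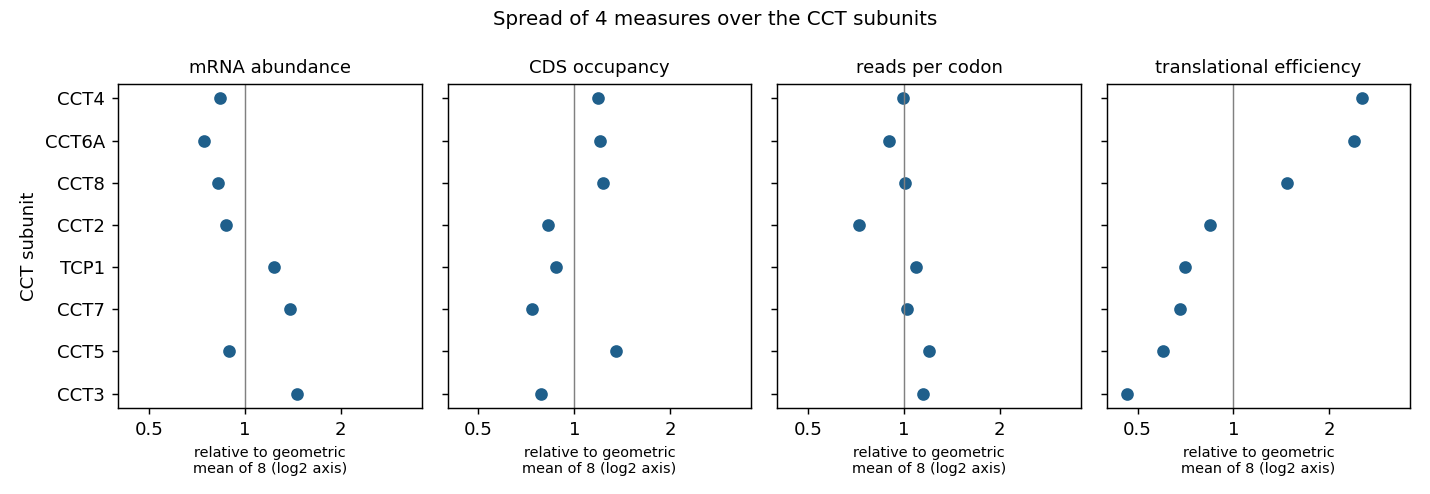
mRNA abundance, mean CDS occupancy, reads per codon (3 libraries summed) and mean TE of the 8 CCT subunits, each divided by its geometric mean over the 8 (horizontal log2 axes with the same range, subunits in the order of TE). Reads per codon span 1.66 times and TE 5.48 times, and CCT5 is high in occupancy but low in TE.

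TE and occupancy, which both set ribosomes against mRNA, did not order the subunits alike. CCT5 had the highest occupancy of the complex in each library and the second lowest TE in each replicate. The TE of CCT4 exceeded that of CCT5 by 2.05 on the log2 scale (limma adjusted p 1.98e-06), and CCT5 had the higher occupancy. Over the 8 subunits the Spearman coefficient of TE with occupancy was 0.33, against 0.69 over 6900 genes. TE divided by occupancy was 25.8 for CCT4 and 24.0 for CCT6A, at percentiles 93.9 and 92.8 of 6912 genes whose median was 7.72. It was 14.5 for CCT8, 12.4 for CCT2, 11.1 for CCT7, 9.68 for TCP1, 7.10 for CCT3 and 5.37 for CCT5, the last at percentile 31.5. How the authors calculated TE is not stated in these sources. What separates the tables for CCT4, CCT6A and CCT5 was not tested.

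Reads can also be shared with copies of a gene, and this is given as a measure for each subunit. Of the 30-base stretches of the CDS, 36.3% in TCP1, 32.1% in CCT8, 30.2% in CCT6A and 19.6% in CCT5 are also found in transcripts of other genes, sense strand only. The copies were mostly pseudogenes, such as TCP1P3, CCT8P1, CCT6P3 and CCT5P1. The share was 8.67% in CCT7 and 1.57% in CCT4, and no such stretch was found in CCT2 and CCT3. The part of shared sequence in the values of TCP1, CCT5, CCT6A and CCT8 was not tested. The listed TCP1 transcript overlaps an exon of ACAT2 on the opposite strand over 454 of its 2352 exonic bases, and non-coding genes on the opposite strand overlap CCT4 (275 bases), CCT5 (423 bases) and CCT8 (85 bases). The total RNA libraries were made with a directional kit, which keeps the strand. The strand setting of the count is not stated in these sources, and the part of these partners in the values was not tested.

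The distribution of ribosomes along the CDS was uneven in each subunit. Each CDS was split into 3 sections of equal length. Relative to the mean of its own CDS, the middle section was above the outer sections in TCP1 (0.94, 1.26 and 0.80 for the first, middle and last section), CCT2 (0.83, 1.42 and 0.75) and CCT6A (0.75, 1.29 and 0.97). CCT7 (0.88, 1.16 and 0.96) and CCT3 (1.08, 1.19 and 0.72) also had their highest section in the middle. CCT4 had 0.73, 1.14 and 1.13, so that its first section alone was low. CCT5 had 0.75, 1.01 and 1.24, highest in its last section. CCT8 had 1.01, 0.81 and 1.18, lowest in the middle. Over 2516 transcripts with at least 1000 reads in the library with fewest reads, the medians of the 3 sections were 1.00, 1.02 and 0.95.

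The mean occupancy of the last 75 codons was divided by that of the first 75. The ratio was 3.31 in CCT6A, 3.16 in CCT5, 1.77 in CCT4, 1.67 in TCP1, 1.53 in CCT7 and 1.04 in CCT8, and it was 0.85 in CCT2 and 0.64 in CCT3. The median over the subunits was 1.60, and 1.65, 1.55 and 1.51 in the libraries with most, middle and fewest reads, beside 1.05 over the 2516 transcripts. CCT6A and CCT5 stood at percentiles 91.0 and 90.3 of these. CCT4 stood at 75.1, TCP1 at 73.5 and CCT7 at 69.6. CCT8 stood at 49.8, CCT2 at 38.5 and CCT3 at 24.6. The median depends on the codons at the ends: it was 1.23 with windows of 100 codons and 1.18 without the 15 codons next to the start and the 5 next to the stop codon. For CCT5 the ratio is set in part by an empty start, described further on.

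**Figure D3:**
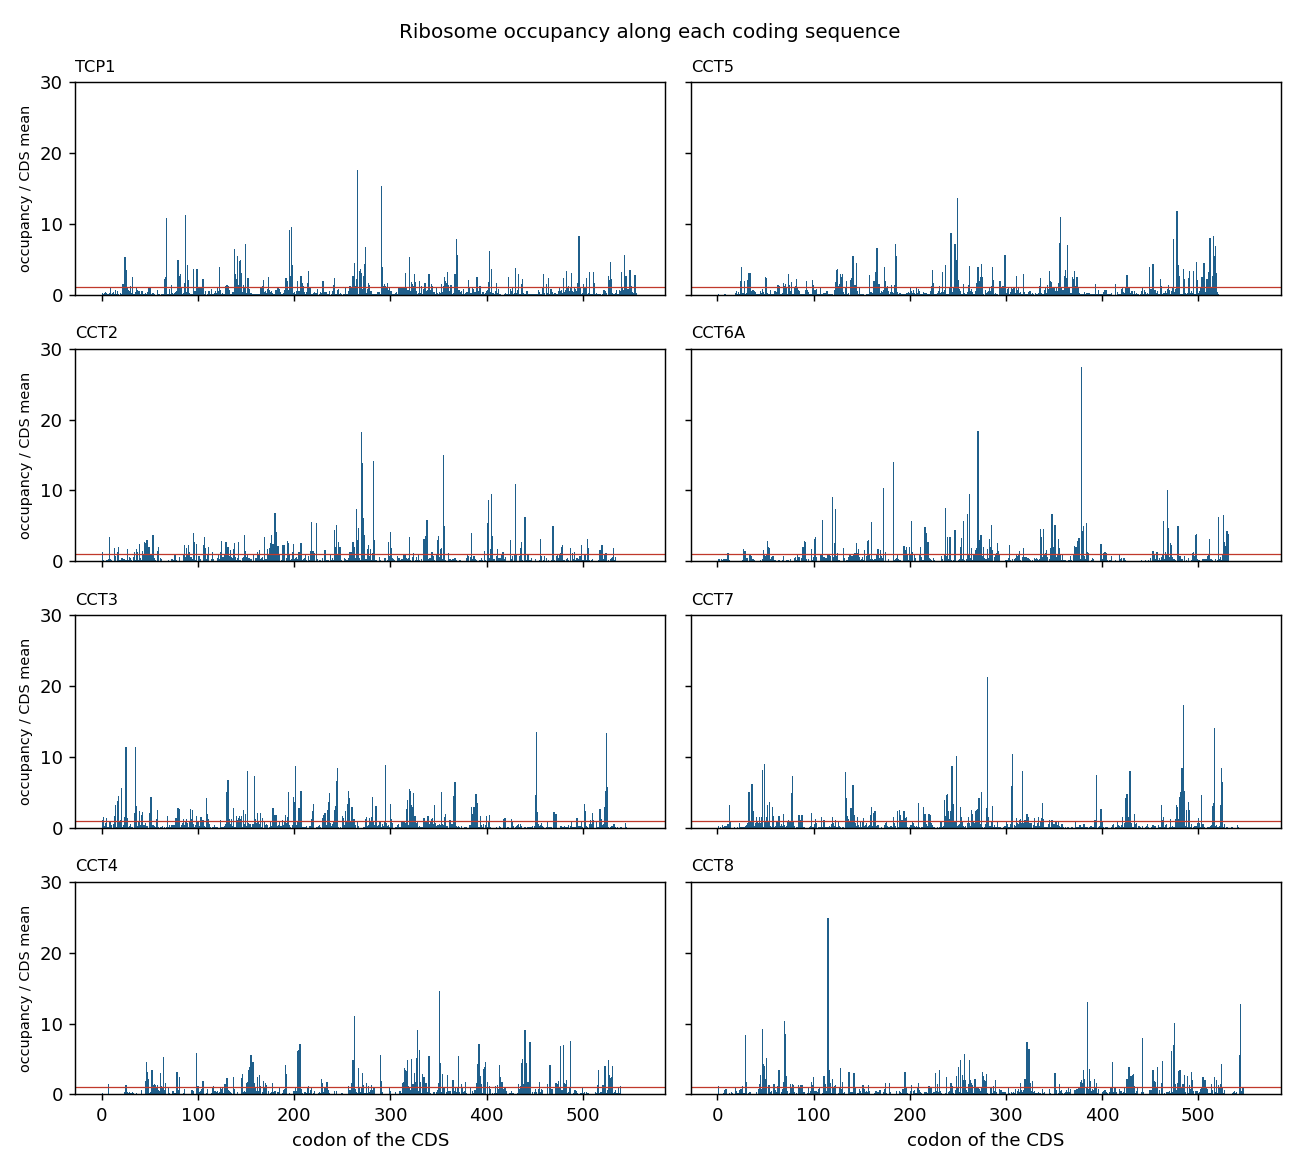
Occupancy at each codon of the 8 coding sequences, divided by the mean of that CDS (vertical axis, the red line is 1), against the codon number. The highest peaks are codon 379 of CCT6A (27.5 times the mean), codon 115 of CCT8 (24.8 times) and codon 281 of CCT7 (21.3 times).

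Single codons stood far above the rest, as they did in most transcripts: the median of the highest codon over 2516 transcripts was 18.5 times the mean. CCT6A had its highest value at codon 379, with 1673, 1926 and 983 reads in the libraries with most, middle and fewest reads, 27.5 times the mean of its CDS. CCT8 had its highest value at codon 115, with 1930, 1282 and 1361 reads, 24.8 times the mean. CCT6A and CCT8 thus stood at percentiles 84.1 and 77.6 of these transcripts. CCT7 peaked at codon 281 (21.3 times), CCT2 at codon 270 (18.2 times), TCP1 at codon 266 (17.6 times) and CCT4 at codon 351 (14.6 times). CCT5 peaked at codon 250 (13.7 times) and CCT3 at codon 452 (13.6 times), the lowest peaks of the complex.

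The same codon was the highest in all 3 libraries in TCP1, CCT2, CCT4, CCT6A and CCT8. In CCT3 the highest codon was 525, 25 and 452 in the libraries with most, middle and fewest reads, and codon 525 reached 13.4 times the mean in the combined values. In CCT7 codon 485, at 17.3 times the mean, led in the library with most reads, and in CCT5 codon 357 led in the middle library. The order of the top codons in these 3 subunits therefore lay within the spread between libraries.

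The sequence around each highest codon is shown with that codon in capitals and 12 bases on either side, to let the codon be read with its neighbours.
CCT4, codon 351: catattgaccaaTTTactgctgacatg
CCT5, codon 250: gatgtgacctctGTCgaagattataaa
CCT2, codon 270: gaaatagaacatGCGgaaaaggaaaaa
CCT7, codon 281: aagttagagaagATCcatcattctgga
TCP1, codon 266: caaattagacagAGAgaatcagatatc
CCT3, codon 452: cctcgtaccctgATCcagaactgtggg
CCT6A, codon 379: ttgatcaaaggaCCAaataagcacaca
CCT8, codon 115: ctcctggaattaGCTgaagaacttctg
The codon in capitals differed between the subunits except in CCT7 and CCT3, which both had ATC. In 4 of the 8, CCT5, CCT2, TCP1 and CCT8, the next codon was gaa, a codon of glutamate.

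This was looked at over all codons of the subunits, leaving out the first 15 and the last 5. The highest codons shown above stayed in these means. The means before glutamate in CCT5, CCT2, TCP1 and CCT8 thus hold the peaks that prompted the look, and were not calculated without them. The groups of next codons were chosen after their values had been seen. Codons followed by a glutamate codon had a mean occupancy above the mean of the CDS in all 8 subunits, from 1.55 times in CCT3 to 2.66 times in CCT2, over 303 codons in all. Codons followed by an aspartate codon had 1.28 times in CCT5 to 2.04 times in CCT7. Codons followed by a lysine codon had 1.04 times in CCT3 to 2.23 times in CCT2. Codons before valine had 0.35 times in TCP1 to 0.70 times in CCT7, and codons before alanine 0.39 times in CCT2 to 0.69 times in CCT5. Codons before proline ranged from 0.24 times in TCP1 to 0.87 times in CCT2, over 115 codons in all, and those before glycine from 0.34 times in CCT7 to 0.96 times in CCT8.

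The direction was the same in the table as a whole. In transcripts with at least 1000 reads the median was 1.88 before glutamate, 1.63 before aspartate, 1.52 before lysine, 0.40 before proline, 0.51 before glycine, 0.51 before valine and 0.51 before alanine. Before glutamate 95.03% of 2395 transcripts lay above 1. The medians over the 8 subunits were 2.05 before glutamate, 1.61 before aspartate, 1.31 before lysine, 0.46 before proline, 0.69 before glycine, 0.45 before valine and 0.53 before alanine. They lay nearest to those of all transcripts before aspartate and alanine, and were higher before glycine and lower before lysine, differences that were not tested. The reads were placed by an offset of 13 nt from their start, so a change of the offset by a codon would change which codon is called the next.

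**Figure D4:**
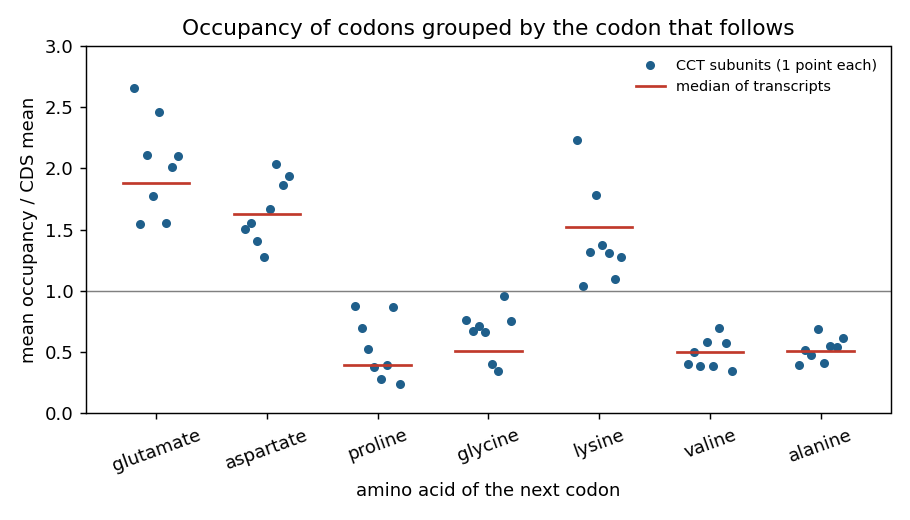
Mean occupancy of codons relative to the CDS mean (vertical axis), grouped by the amino acid that the following codon encodes. Points are the 8 CCT subunits and red lines are the medians over the transcripts with at least 1000 reads. All 8 points lie above 1 before glutamate, aspartate and lysine and below 1 before proline, glycine, valine and alanine.

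At the start codon itself CCT2 had 1.27, CCT8 1.18 and CCT3 1.08 times the mean of the CDS. TCP1 had 0.20, CCT4 0.14, CCT7 0.22 and CCT6A 0.29, below the median of 0.48 over the 2516 transcripts. The start codon of CCT5 had 0.0077 times the mean. The stop codon had no in-frame reads in 7 subunits, and in CCT5 it had 0.0043 times the mean. Its median over the 2516 transcripts was 0 as well. The codon before the stop reached 3.87 times the mean in CCT6A and 1.13 times in CCT4.

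CCT5 was empty at the start of its listed CDS. The first 18 codons held 3 reads in the 3 libraries together, and codons 19 to 40 held 4680, or 213 per codon. The 24 codons of its 5′UTR held 0 in-frame reads, which allows up to 3 reads by counting error alone. The listed transcript has 521 codons, while GENCODE also holds a CCT5 transcript of 542 codons. They share their sequence from codon 15 of the listed transcript, which is codon 36 of the longer one, so that 35 codons of the longer one are not in the occupancy table. A read placed at codon 19 begins 13 nt earlier. The start of the longer transcript, with the ATG in capitals, is shown to set it against the start of the listed one above.
CCT5, longer transcript: tgttgcaccATGgcgtcc
This start has an A 3 bases before the ATG and a G right after it, so that with it 8 of the 8 subunits would have the A or G and 5 of the 8 the G. The reads that the table shows on CCT5 lie, but for the 3 in its first 18 codons, on sequence common to both transcripts. Without the first 18 codons the mean CDS occupancy of CCT5 was 0.112, still the highest of the complex.

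In the 15 codons next to its start codon TCP1 differed from the other subunits. Its 5′UTR held 495 in-frame reads, 479 of them in the 15 codons next to the start codon, with 224, 150 and 105 of these in the libraries with most, middle and fewest reads. Per codon this was 31.9 reads, against 47.5 in the first 15 codons of the CDS. These 15 codons had 15.5% of the mean occupancy of the CDS, at percentile 80.7 of 2290 transcripts whose median was 2.48%. The most reads stood 3, 7 and 13 codons before the start, with 148, 122 and 75 reads on GCC, ACG and CGG. There was no stop codon and no ATG in frame in these 15 codons. The last 8 of them and the first codons of the CDS are shown, with the start codon in capitals.
TCP1: tcgacgtgtatcgctgccgtcaagATGgag

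In the other subunits the 15 codons before the start had 3.56% of the mean occupancy of the CDS in CCT3, 3.07% in CCT2, 1.36% in CCT4, 1.14% in CCT8, 0.687% in CCT6A and 0.128% in CCT7. Over the whole 5′UTR the in-frame reads were 171 in CCT4, 112 in CCT3, 61 in CCT2, 35 in CCT8, 21 in CCT6A and 16 in CCT7. TCP1 had the most, in a 5′UTR of 75 codons. Per codon its whole 5′UTR had 3.21% of the CDS occupancy, at percentile 52.1 of 9566 transcripts whose median was 2.86%. The other 7 lay below that median, from 0% in CCT5 to 1.84% in CCT4. In the 15 codons before the start, TCP1 had 17.2%, 14.0% and 15.3% of the CDS mean (libraries with most, middle and fewest reads). The next highest, CCT3, had 2.49%, 2.97% and 5.21%, so that TCP1 was above the other 7 in each library. With 3 libraries an exact permutation test of such a pair cannot go below p = 0.25, and none was run. In the 3′UTR, from 1 read in CCT2 to 11 reads in TCP1 and CCT5 were found in all 3 libraries together. Per codon this was at most 0.0498% of the CDS, in CCT3, and ribosomes past the stop codon were thus hardly detected on the 8 mRNAs. Such low values were usual, as the median by occupancy over 9566 transcripts was 0.0178%. By reads, CCT3, CCT8 (0.0482%) and TCP1 (0.0284%) lay above this median. CCT7 (0.0168%, 2 reads) and CCT4 (0.0166%, 6 reads) lay just below it, and the rest further below. Reads and occupancy are unlike measures and the reads were few, so these placements are uncertain.

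**Figure D5:**
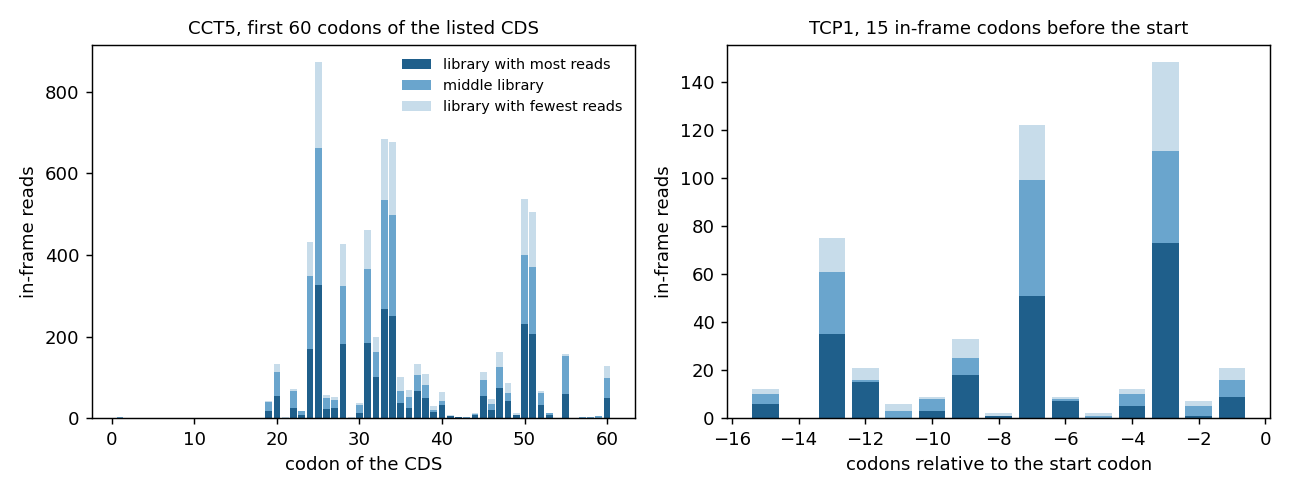
In-frame reads (vertical axes) at the first 60 codons of the listed CCT5 CDS and at the 15 in-frame codons before the TCP1 start codon, stacked by library. CCT5 is empty up to codon 18, and TCP1 has its highest bars 3, 7 and 13 codons before the start.

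The partners of the chaperonin were set beside it by TE. All 5 measured subunits of prefoldin were called higher than the median, PFDN2 at a mean TE of 6.26, PFDN4 at 4.11, PFDN1 at 2.79, VBP1 at 1.18 and PFDN5 at 0.762. Thus PFDN2, PFDN4 and PFDN1 lay above each CCT subunit. All 5 measured co-chaperones of CCT were called higher too: PDCL3 at 3.31, PDCD5 at 1.44, TXNDC9 at 1.07, PDCL at 1.06 and BAG3 at 0.713. HSPD1 and HSPE1, the chaperonin of mitochondria and its lid, were called higher at 3.24 and 4.09, above each CCT subunit. Of the proteins related to CCT, only BBS10, which helps assemble the BBSome of cilia, had a TE, 0.628, and it was called higher. Of the heat shock factors, HSF2 had a TE of 1.03 and the binding protein HSBP1 of 7.998, and both were called higher.

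The clients of CCT were counted in the same way. Of 12 measured actin and tubulin genes 10 were called higher and 2 lower, from TUBB6 at a mean TE of 0.251 to TUBB4A at 16.2, whose replicates spread from 10.9 to 20.8. Tubulin and actin genes share long stretches of sequence, so that their values are uncertain. Of 24 measured genes for beta-propeller and other substrates 12 were called higher and 12 lower, from MLST8, a subunit of the mTOR complexes, at 0.0264 to HDAC2, a histone deacetylase, at 2.20. Of 6 measured tubulin cofactors and related genes, 4 were called higher and 2 lower. TBCA had a mean TE of 3.29, TBCD of 0.909, TBCC of 0.737, ARL2 of 0.435, TBCB of 0.194 and TBCEL of 0.0751, and the call of ARL2 (limma adjusted p 0.0495) was lost without replicate 1 or 2. Of the MCM2-7 genes 4 were called higher and MCM2 (0.278) lower, with MCM6 at 2.91, MCM4 at 0.920, MCM7 at 0.540, MCM5 at 0.440 and MCM3 at 0.350. MCM3 was not called (limma adjusted p 0.0584) but was called lower with only genes of a mean TE of at least 0.05 (0.0406) and against the mean of all genes (0.00293), and MCM5 lost its call without replicate 1 or 2. Of the HEK293 markers 5 of 6 were called higher, VIM at a mean TE of 2.42, NEFM at 1.80, KRT8 at 1.37, NEFL at 1.35 and KRT18 at 0.698, and LIN28B at 0.271 was called lower. COL1A1, the marker of another cell type, had 0.697. These counts stand beside 44.7% of all genes called higher and 44.6% called lower, so that the even split of the beta-propeller and other substrates is close to that of all genes.

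The genes nearest to the subunits' centre in TE, CDS occupancy and mRNA abundance together, each on the log2 scale and standardised over 6900 genes, were NDUFA13, COX6B1, RPS10-NUDT3, XRCC6 and ATP5O. Their distances were 0.259, 0.272, 0.273, 0.308 and 0.347 in units of the SD over genes. The subunits themselves lay at 0.293 (CCT2) to 0.892 (CCT4), so that 3 other genes lay nearer to the centre than any subunit. RPS10-NUDT3 is a read-through gene that shares its sequence with its parts, and its values are uncertain.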

How the data were processed

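Ribosome profiling data of HEK293 cells (3 RPF and 3 total RNA libraries) were analysed from 2 deposited tables. According to the study's methods, the authors removed adapters and PCR duplicates, aligned RPFs with bowtie to the hg19 transcriptome, kept lengths from 28 to 30 nt, counted 13 nt from the start of the read to place it, and aligned total RNA with Hisat2 and counted it with HTseq-count. The submitters' processing notes name cutadapt 1.16, Bowtie 1.1.2, TopHat2 2.1.1 and HTSeq 0.9.1, without roles. The TE table holds, per the file headers, a linear ratio for 8121 genes and each replicate. Its formula is not stated in these sources. The occupancy table, for 9570 transcripts, was made by the authors from in-frame RPF counts, scaled by library size and set against TPM. Its values are in arbitrary units with replicates combined, and the spread between libraries is that of the recovered reads. For 31 transcripts a list broken over lines was rejoined.

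TE was tested on log2(TE + 0.01) with limma 3.58.1 (R 4.3.3) and no filter. Each gene was set against the median over all genes, or within a replicate against each subunit, with Benjamini-Hochberg adjustment over all genes at an FDR of 0.05. Of the 2 fits that hold a pair, the larger adjusted p was taken. RPFs and total RNA of a number come from the same lysate, so the pairing is part of the ratio. Alternatives were another pseudocount (0.1), a filter on mean TE (0.05), the mean as reference, a replicate block and leaving out each replicate.

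The worth of a read in each library was recovered for 9557 transcripts (99.9%) from low occupancy values as whole multiples of 3 steps (relative tolerance 1e-08), and the values of the subunits were then solved for whole reads. Both scripts were tested on simulated data. Relative mRNA abundance is the geometric mean over the inverse steps. The tables hold no library depth, and intervals or floors of read counts cover counting error only. Sequences and positions are those of GENCODE 44 on GRCh37 (equal to hg19), matched by symbol and CDS length for 9111 transcripts and for all 8 subunits. Python 3.11.15, numpy 2.4.6 and pandas 2.3.3 were used.

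The members, lists and tests were chosen with earlier results of these data known. Genes named are the 8 subunits, all measured genes of lists of 7 or fewer, the highest and lowest of longer lists, and the 5 genes nearest to the subunits.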

Additional observations from a re-analysis of the deposited data

How the results depend on the processing

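All 56 alternative values of the subunits' TE against the median kept their direction, and 54 kept their side of the threshold. CCT3 did not: against the mean of all genes it stood at 0.044 (adjusted p 0.417, limma), and without each replicate at 0.19 to 0.24 (adjusted p 0.0325 to 0.0549), the call being lost without replicate 2. With the replicate block, 8 subunits were called higher and CCT3 stood at 0.21 (adjusted p 0.0107). It changed no call of a subunit, but that of ARL2 was lost (adjusted p 0.0560). Of the 28 pairs, 24 to 25 differed without a replicate and 25 with no replicate block, where CCT5 and CCT7 lost their call (adjusted p 0.0569). The range of TE was 5.44 to 5.56 times without each replicate.

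The range of CDS occupancy over the subunits (1.83 times) was 1.80 without the first 15 and last 5 codons, 2.48 with the median over codons, 1.90 without the 1% highest codons and 1.90 without the first 18 codons of CCT5, an alternative chosen after seeing the data. The median ratio of the last to the first 75 codons (1.60) was 1.23 with windows of 100 codons and 1.18 without the end codons, and 1.53 without CCT5, also chosen after seeing the data. From the largest step alone, the range of mRNA abundance was 1.93 instead of 1.97 times and that of output 1.64 instead of 1.67 times. Of 73 alternative values of single subunits, 35 moved by more than the spread between libraries and 0 reversed. These counts are no measure of stability. Single steps were judged against the spread of the same steps, so the farthest step counts as moved in almost any case. A median over codons is another measure than a mean, and leaving out the 1% highest codons must lower the mean. Positive values cannot change sign. Leaving out the first 15 and last 5 codons moved the mean CDS occupancy of CCT4 (0.0947 to 0.0976) and CCT7 (0.0589 to 0.0604) alone. The cause of the differences between settings was not tested. The first 35 codons of the longer CCT5 transcript and the sequencing depth of the total RNA could not be read from the tables.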
